A study of Homo sapiens with 2 samples.

Results

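The genes described here encode the initiation and elongation factors of cytosolic translation and the proteins named after them. They were chosen by gene symbol: every symbol that starts with EIF or EEF and a number and that a probe set of 1 gene carries. EIF1AY and 4 antisense or divergent noncoding transcripts were left out. This gave 57 genes out of 19775 with such a probe set. Of these, 55 were measured, meaning a signal above the floor of 13.7 on at least 1 array, out of 12705 measured genes in all. The floor is the median signal of all probe sets other than controls. The arrays were made from EOL-1, a human eosinophilic leukaemia line driven by the FIP1L1-PDGFRA fusion kinase. One culture received 100 nM Glivec for 4 h (imatinib, which blocks the PDGF receptor, ABL and KIT kinases) and 1 culture was left untreated, both grown in RPMI with serum and antibiotics. Each condition has a single array, so the differences carry no p-value and could not be checked in a second culture. In bulk RNA, a lower level per cell and fewer cells with a high level cannot be told apart. The set was put together with the signals of these arrays already known, so all counts of members are descriptions.

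Translation begins when EIF2 carries the initiator tRNA to the small ribosomal subunit, with EIF1, EIF1A, EIF3 and EIF5 bound there, and EIF4 factors bring the capped mRNA. EIF2B recharges EIF2 with GTP, and kinases of the EIF2AK family block that step by phosphorylating EIF2 alpha. EEF1 then delivers aminoacyl-tRNAs to the elongating ribosome and EEF2 moves it along the mRNA. MYC and mTOR signalling are known to govern this machinery, MYC through transcription of factors such as EIF4E and mTOR through the EIF4E-binding proteins and through mRNAs that start with a pyrimidine tract.

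Most factors differed little between the cultures. By the probe set used for each gene, those of at least 1.5-fold were all lower with Glivec on the deposited scale. Values are MAS5 signals, and a log2 ratio is Glivec over untreated. At least 2-fold higher were 0 of 55 factors, against 3.13% of 12705 measured genes, and at least 2-fold lower was 1 of 55, against 2.63%. By measured value or bound, 0 were 3-fold higher or lower, against 0.441% of genes higher and 0.677% lower. For EIF3C and EEF1A2, known only as bounds, larger differences cannot be told. At the smaller threshold of 1.5-fold, 0 factors were higher, against 13.5% of all measured genes. At that threshold 9 factors (16.4%) were lower, against 8.33%. These were EIF3C, EIF5A2, EIF1AD, EIF2S1, EIF4A3, EIF1AX, EIF2B3, EIF4E and EIF3J. Among probe sets not used, some were past 1.5-fold higher, as for EEF1A1 (up to 0.64) and EEF1D (up to 0.93). The highest were bounds, 1.64 for EIF4G2 and 1.06 for EIF3K, each with an untreated signal below the floor. Others were past 1.5-fold lower, down to -1.32 for EIF2S1. Further ones were those of EIF1 (-1.19), EIF3B (-0.96), EIF2S2 (-0.76) and EIF3A (-0.74). The median log2 ratio was -0.034 over the factors and 0.097 over all measured genes, with 31 factors below 0 and 24 above. At a mean signal of at least 1000, 0 of 29 factors were 1.5-fold higher, against 65 of 1140 genes. There 4 (13.8%) were lower, against 3.68%, and the medians were 0.080 and 0.077. Under 1000, 0 of 26 factors were 1.5-fold higher, against 1646 of 11565 genes. There 5 (19.2%) were lower, against 8.79%, and the medians were -0.20 and 0.099.

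How far the probe sets of one gene lay apart is the only measure of spread here, and it leaves out variation between cultures. The pooled SD between them on the log2 scale was 0.298 over the 34 factors with several probe sets above the floor on both arrays, and 0.325 over 5603 such genes in all. In 13 of these 34 factors (38.2%) every such probe set was below 0, against 26.2% of all such genes. Every one was above 0 in 9 factors (26.5%), against 35.4% of all such genes. Signals of 18 hybridisation spike-in probe sets were also higher on the Glivec array, with a median log2 ratio of 0.74. When the arrays were scaled by these controls, the median of all measured genes became -0.60 and every factor measured on both arrays was below 0. Each ratio is therefore relative to the bulk of genes. The part of the spike-ins in these results was not tested. Of 9 myeloid and eosinophil markers with a probe set, 6 were above the floor on both arrays and IL5RA was below it on both. Of the 6, PTPRC, MPO, PRG2 and RNASE2 had ratios of 0.34 to 0.42, whereas CSF2RB was at -0.83 and GATA2 at -1.14. Of 4 T cell markers none was above it on both, and they summed to 30.8 with Glivec and 32.8 untreated. Among B cell, erythroid, epithelial and fibroblast markers, CD79A (94.9 with Glivec, 60.03 untreated) and KRT18 (20.8 with Glivec, 14.5 untreated) were above the floor on both arrays. HBB (30.5 with Glivec against 6.93), DCN (20.1 against 4.13) and KRT8 (15.4 against 13.67) were above it with Glivec alone. The part of these markers in the results was not tested.

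**Figure D1:**
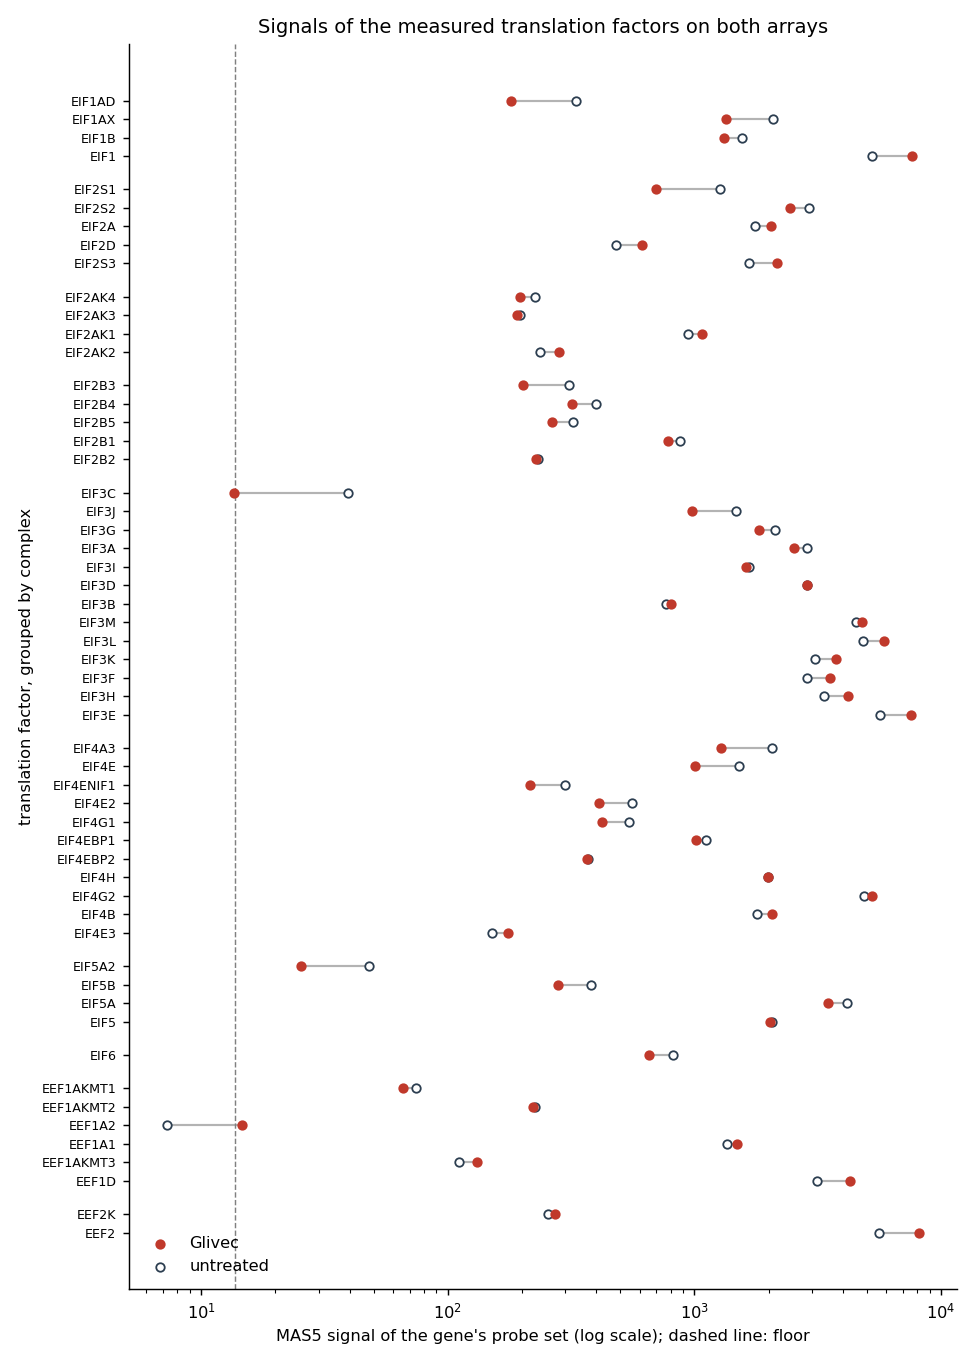
MAS5 signal (log scale) of each of the 55 measured factors on the Glivec array (filled) and the untreated array (open), grouped by complex. The filled point lies clearly to the left for EIF1AD, EIF1AX, EIF2S1, EIF2B3, EIF3C, EIF3J, EIF4A3, EIF4E and EIF5A2. On the deposited scale it lies to the right for EIF1, EIF3E, EEF1A2, EEF1D and EEF2. EIF3C (13.6 with Glivec, 39.4 untreated) and EEF1A2 (14.6 and 7.25) each have a signal below the floor. After spike-in scaling EIF1, EIF3E, EEF1D and EEF2 lie to the left too, and EIF3E has a ratio of -0.032 with quantile normalization.

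Factors whose transcripts start with pyrimidines had a higher median ratio than the others, though the highest single ratio belonged to EIF1, which has another start. Many mRNAs of ribosomal proteins and elongation factors begin with a C followed by an unbroken run of pyrimidines, the terminal oligopyrimidine or TOP motif through which mTOR and LARP1 act on translation. The table of RefSeq starts used here holds 43 of the 55 measured factors. The starts of the other 12, EEF1D, EIF3E, EIF3H and EIF3L among them, were not analysed here. A start was called a pyrimidine start when the first transcribed base was C and the next 4 were C or T, at any listed start of the gene. This comparison was chosen after the ratios were seen. The starts of the 10 factors that met it are shown because they set these genes apart. Each line covers 10 bases before and 15 after the start (RefSeq, GRCh38.p14, 5′ to 3′ on the gene's strand), with the pyrimidine run in capitals.
EEF2, chr19:3985449-3985473, minus strand: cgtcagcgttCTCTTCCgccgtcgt
EIF2S3, chrX:24054946-24054970, plus strand: gatttccttcCTCTTTTggcaacat
EIF2D, chr1:206612451-206612475, minus strand: ccagccgggcCCTTTTCgcggccgg
EIF3F, chr11:7987327-7987351, plus strand: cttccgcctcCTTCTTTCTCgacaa
EIF3K, chr19:38619178-38619202, plus strand: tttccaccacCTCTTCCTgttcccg
EIF2A, chr3:150546777-150546801, plus strand: cgagcggtttCTCTTTCCgggacaa
EIF4B, chr12:53006446-53006470, plus strand: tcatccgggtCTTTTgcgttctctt
EEF1A1, chr6:73521018-73521042, minus strand: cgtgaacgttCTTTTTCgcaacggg
EIF3M, chr11:32583821-32583845, plus strand: gcccagttccCTTTTCCggtcggcg
EIF3D, chr22:36529152-36529176, minus strand: cgcatgtttcCTCTTTTCCTggttt
The starts of 8 of the 9 factors at least 1.5-fold lower with Glivec follow for contrast, with the first transcribed base in capitals. That of EIF3C, known only as a bound, is not shown. Nor are those of factors with another start and a ratio above 0, EIF1 among them.
EIF2S1, chr14:67360318-67360342, plus strand: gaggttccgcAtgcgcggtggagtg
EIF4E, chr4:98929119-98929143, minus strand: tggagcggttGtgcgatcagatcga
EIF4A3, chr17:80147114-80147138, minus strand: cggcagcggcAcagcgaggtcggca
EIF1AX, chrX:20141824-20141848, minus strand: gagtcgcggcGccatttgctgccgc
EIF1AD, chr11:66002143-66002167, minus strand: cagcgccggaAgtacggttttcgga
EIF2B3, chr1:44986581-44986605, minus strand: gctgtcagtcAgaggcggcgtggag
EIF3J, chr15:44537137-44537161, plus strand: ccgccgtgctAactcctcgctagct
EIF5A2, chr3:170908623-170908647, minus strand: cccgtctcttGgaactgccgcggcc

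By the probe sets used, none of the 10 factors with a pyrimidine start was below 0, with log2 ratios from 0.0054 (EIF3D) to 0.54 (EEF2). EIF3M, at 0.080, had dimmer probe sets at -0.66 and -0.69. With the mean over probe sets EIF3M was below 0 (-0.27), as 1 of the 10. Of the 33 factors with another start, 26 were below 0, and all 9 that were at least 1.5-fold lower were among them. The other 7 lay above 0, up to 0.55 for EIF1, so the groups overlapped. The median was 0.25 with a pyrimidine start and -0.25 without. After quantile normalization 2 of the 10, EIF3D and EIF3M, were below 0, against 27 of the 33, with medians of 0.14 and -0.27. Median centring and the loess trend also turned these 2 genes, and spike-in scaling put all 43 below 0 with medians of -0.49 and -0.99. The difference of the 2 medians was 0.50 as deposited, 0.42 after quantile normalization and 0.44 after loess.

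Signal differed between the kinds of gene. Of the 10 factors with a pyrimidine start, 9 had a mean signal of at least 1000, EIF2D being the exception, against 11 of the 33 others. The part of signal in the difference was not tested beyond the values that follow. Among the 20 factors of that brightness with a known start, the median was 0.21 for the 9 with a pyrimidine start and -0.24 for the 11 without. Quantile normalization gave 0.14 and -0.23 for the same genes. Across all 10236 measured genes with a listed start, 725 (7.08%) had a pyrimidine start, and 30.6% of those were below 0, against 42.4% of the other 9511. Their medians were 0.21 and 0.079. At a mean signal of at least 1000, 19.5% of 133 genes with a pyrimidine start were below 0, against 43.75% of 816 others. The medians of these genes were 0.29 and 0.051, or 0.056 and -0.022 after quantile normalization. With translation factors and ribosomal proteins left out, the medians as deposited were 0.17 and 0.048. Of 48 cytosolic ribosomal protein genes with a listed start, 34 met the rule, and all 48 were above 0 on the deposited scale, with either start. After quantile normalization 11 of the 34 and 4 of the other 14 were below 0. RefSeq starts are annotations, and the arrays did not measure where transcripts began in these cells.

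**Figure D2:**
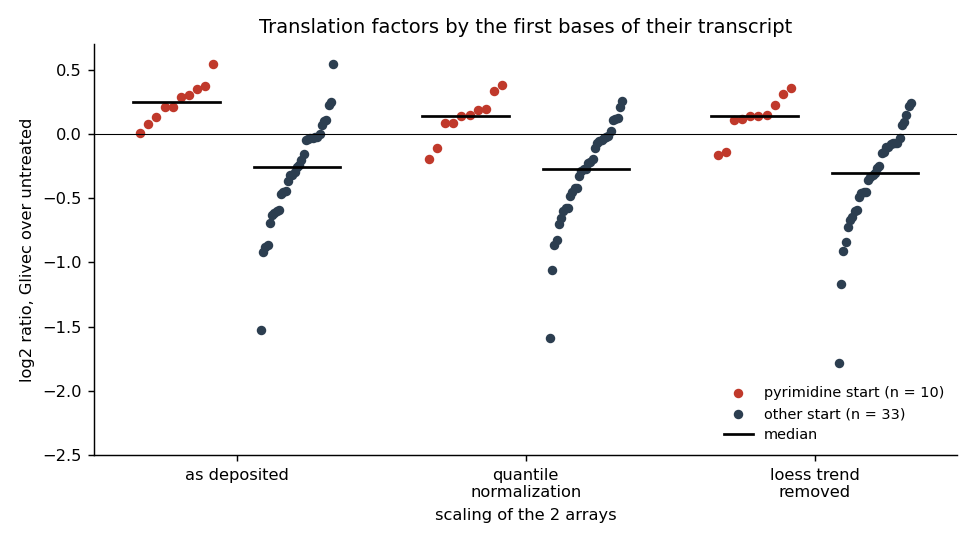
Log2 ratio of each of 43 factors with a listed start, by pyrimidine start (left of each pair, n = 10) or other start (right, n = 33), as deposited and under quantile normalization and loess; bars are medians. The medians are 0.25 and -0.25 as deposited, 0.14 and -0.27 after quantile normalization, and 0.14 and -0.30 after loess, where EIF3D and EIF3M fall below 0, as they do with quantile normalization.

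**Figure D3:**
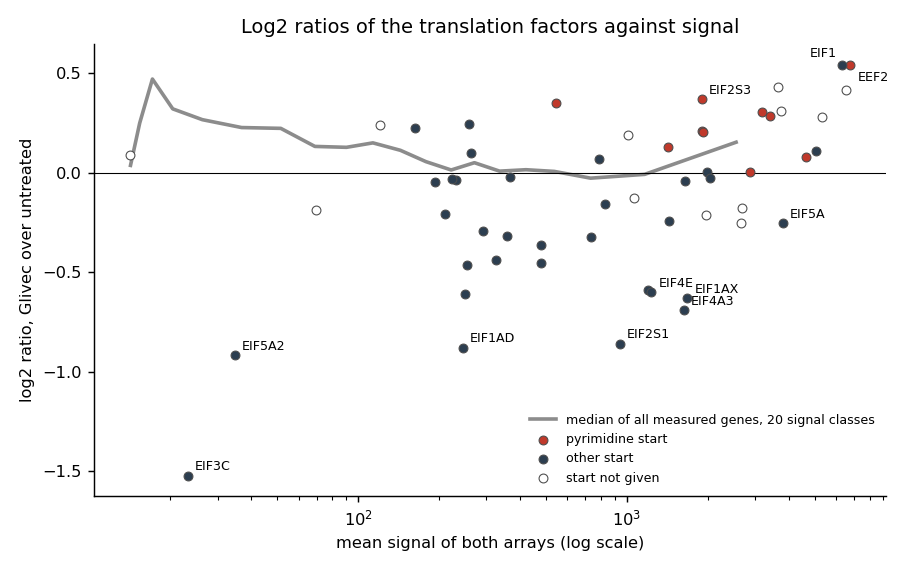
Log2 ratio of the 55 measured factors against the mean signal of both arrays (log scale), coloured by transcript start, with the median of all measured genes in 20 signal classes as a line. At mean signals of at least 1000, factors with a pyrimidine start lie at 0.0054 to 0.54 on the deposited scale (EIF3D and EIF3M are below 0 after quantile normalization, and all after spike-in scaling), and factors with another start lie between -0.69 (EIF4A3) and 0.55 (EIF1).

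Among the factors that select the start codon, EIF1AX was lower and EIF1 higher by the probe sets used. EIF1AX, the X-linked EIF1A that steers scanning, had a signal of 1348 with Glivec against 2089 untreated, a 1.55-fold lower value. Its 4 probe sets were all below 0, with a mean log2 ratio of -0.61 ± 0.21 (SD over probe sets). With only _at probe sets its ratio was -0.34, short of 1.5-fold. EIF1, which guards start codon fidelity, had signals of 7635 with Glivec and 5233 untreated, a log2 ratio of 0.55, or 0.12 after quantile normalization. The mean over its 7 probe sets was -0.021 ± 0.55 (SD). Of its 6 other probe sets, 5 lay between 0.00071 and 0.30, and a dim one was at -1.19 (31.7 with Glivec against 72.3). The close relative EIF1B went the other way from EIF1, with 1322 against 1564 and a ratio of -0.24. EIF1AD, which shares a domain with EIF1A, was 1.84-fold lower (181 with Glivec, 332 untreated), while its second probe set gave -0.32.

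Within EIF2 the subunits parted. EIF2S1 encodes the alpha subunit, the one phosphorylated under stress. Its signal was 699 with Glivec and 1269 untreated, a 1.82-fold lower value, and its other probe sets were lower still, at -0.99 and -1.32. The mean over the 3 probe sets was -1.06 ± 0.23 (SD over probe sets), a spread that leaves out variation between cultures. EIF2S2, the beta subunit, was at -0.25 (2442 with Glivec, 2906 untreated), with a dimmer probe set at -0.76. EIF2S3, the gamma subunit that binds GTP, was at 0.37 with signals of 2158 with Glivec and 1670.0 untreated, and its other probe sets gave 0.31 and -0.059. The factors EIF2A and EIF2D, which are not EIF2 subunits and can deliver tRNA by other routes, were at 0.21 and 0.35. Of these 3 genes above 0, all had a pyrimidine start, and all 3 stayed above 0 under quantile normalization, centring and loess but not spike-in scaling.

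All 5 EIF2B subunits, which form the exchange factor for EIF2, were below 0 by the probe sets used. EIF2B3, the gamma subunit, was 1.53-fold lower by its only probe set, with 202 with Glivec and 309 untreated. EIF2B4, EIF2B5 and EIF2B1 were at -0.32, -0.29 and -0.16, and EIF2B2 was at -0.034 with 228 against 233. A second EIF2B5 probe set, with signals of 24.4 and 19.7, was at 0.31. The 4 kinases of EIF2 alpha lay on both sides of 0. EIF2AK2, the interferon-induced PKR, had 281 with Glivec and 237 untreated (0.24), and EIF2AK1, the haem-regulated kinase, 1075 and 941 (0.19). EIF2AK3, the PERK kinase of the endoplasmic reticulum, was at -0.045 with 190.2 and 196. EIF2AK4, the GCN2 kinase that senses amino acid shortage, was at -0.21 with 196 and 226. Dimmer probe sets had the opposite sign for EIF2AK1 (-0.28), EIF2AK4 (0.11) and EIF2AK2 (-0.069), and another EIF2AK2 probe set gave 0.27. By the probe sets used, the 4 kinases and the EIF2B genes other than EIF2B3 had ratios smaller in size than the pooled SD of 0.325 between probe sets over all genes. EIF2B4 was past the SD of 0.298 over the factors alone, and its second probe set was at -0.43. Both SDs leave out variation between cultures.

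EIF3, the large scaffold on the small subunit, had 5 of 13 measured subunits below 0 (38.5%), against 41.0% of all measured genes. Its median was 0.070, and it turned below 0 with quantile normalization (-0.086), centring (-0.028), loess (-0.077), spike-in scaling (-0.67) and averaging of probe sets (-0.040). EIF3J, a loosely bound subunit, was just past 1.5-fold lower at -0.59, with 978 with Glivec and 1472 untreated, and its second probe set was at -1.20 (193 against 442). EIF3A and EIF3G were at -0.18 and -0.21, and 2 further EIF3A probe sets were at -0.47 and -0.74. EIF3B was at 0.070 by the probe set used (below 0 after centring), but 2 brighter _x_at probe sets, a type designed with a risk of cross-hybridisation, were at -0.36 and -0.28. Dim _at probe sets of EIF3B were at -0.96 (51.4 with Glivec, 99.8 untreated) and 0.087. The mean over its probe sets was -0.29. EIF3E, EIF3H, EIF3F, EIF3K and EIF3L were between 0.28 and 0.42, with EIF3E at 7539.65 with Glivec and 5650.2 untreated. After quantile normalization EIF3E, EIF3L, EIF3M and EIF3D were below 0, at -0.032, -0.086, -0.19 and -0.11. EIF3C was the one factor at least 2-fold lower. It was below the floor with Glivec (13.6) and at 39.4 untreated, so at least 2.88-fold lower, by a single dim probe set. Another 3 probe sets are annotated to both EIF3C and its copy EIF3CL and belong to neither alone; these had signals of 2479 to 4081 with Glivec and ratios of -0.095 to 0.20.

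Of the 8 measured EIF4 factors, binding proteins left out, 4 were below 0 and 4 above. EIF4E, the cap-binding protein, had 1001 with Glivec against 1518 untreated, 1.52-fold lower, and its 4 probe sets above the floor averaged -0.64 ± 0.20 (SD), none above -0.38. EIF4E2, a cap-binding relative that represses translation, was at -0.45 (409 against 559), with 4 probe sets from -0.45 to -0.065. EIF4E3, the third of the family, was above 0 by all 4 of its probe sets (0.15 to 0.45), with 176 against 151. EIF4G1, the scaffold that joins EIF4E to EIF3, was at -0.37 (423 against 545), and EIF4G2, which lacks the EIF4E-binding site, was at 0.11 (5263 against 4869.97) or -0.22 after quantile normalization.

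EIF4A3, the helicase of the exon junction complex, was 1.62-fold lower by its only probe set (1279 against 2066). EIF4B, a cofactor of the EIF4A helicases, was at 0.21 to 0.56 by 3 probe sets and EIF4H at 0.0018, or -0.033 after quantile normalization. The inhibitors of EIF4E differed little: EIF4EBP1 was at -0.13 (1018 with Glivec, 1113 untreated), and EIF4EBP2 at -0.022, or 0.020 after quantile normalization. EIF4ENIF1, which carries EIF4E into the nucleus, was at -0.46 (216 against 298). A dim second probe set, below the floor untreated, went the other way (16.7 against 6.98, a bound of 0.29). The mean over its probe sets was -0.089. EIF4A2 was below the floor on both arrays by the only probe set annotated to it alone. EIF4A1, EIF4EBP3, EEF1B2 and EEF1G were not analysed here, since their probe sets are annotated to several genes.

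**Figure D4:**
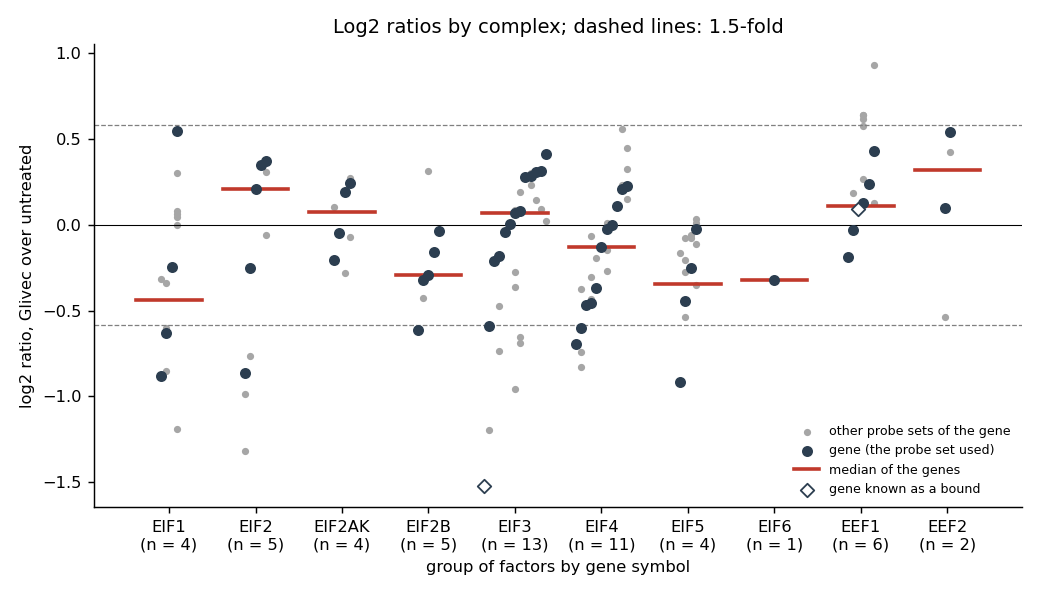
Log2 ratio of each measured factor (dark points; diamonds are bounds) and of the other probe sets of the same genes (grey), by complex, with the median of the genes as a bar and 1.5-fold as dashed lines. On the deposited scale the dark points of all EIF2B and EIF5 genes lie below 0 and those of EEF1A1, EEF1D, EEF2 and EEF2K above it. After spike-in scaling EEF1A1, EEF1D, EEF2 and EEF2K are below 0 too.

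All 4 factors whose symbols start with EIF5 were below 0 by the probe sets used. EIF5A, the hypusine-containing factor that relieves stalled ribosomes, was at -0.25 (3488 with Glivec, 4157 untreated), or -0.48 after quantile normalization, with 2 _x_at probe sets at -0.060 and -0.077. Its paralog EIF5A2 was 1.89-fold lower at low signal (25.3 against 47.8), with another probe set at -0.17. EIF5B, the GTPase of subunit joining, was at -0.44 (280.3 against 380.5), and all 5 of its probe sets above the floor on both arrays were below 0, from -0.53 to -0.077. EIF5, which activates GTP hydrolysis by EIF2, was at -0.025 with 2021 and 2056, and its other probe sets lay on both sides of 0, from -0.35 to 0.034. EIF6, which keeps the ribosomal subunits apart, was at -0.32 (655 against 819).

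The 4 measured elongation factors were above 0 on the deposited scale, and EEF1A1, EEF1D and EEF2 were below it with spike-in scaling, under which EEF1A2 has no value. EEF2, the translocase, had 8173 with Glivec and 5611 untreated, 1.46-fold higher, and its second probe set gave 0.42. The ratio was 0.088 with quantile normalization and 0.22 after loess. EEF1A1, which carries aminoacyl-tRNA, was at 0.13 by the probe set used (1484 against 1356). Its 4 _x_at probe sets, with signals of 10711 to 13014 with Glivec, lay between 0.58 and 0.64. EEF1D, an exchange factor subunit, was at 0.43 (4257 against 3151), with 3 other probe sets from 0.13 to 0.93. EEF1A2, the form of muscle and neurons, was near the floor (14.6 with Glivec, 7.25 untreated), and its bound of 0.091 turned below 0 with centring and loess. Of the modifying enzymes, the EEF2 kinase gene EEF2K was at 0.098 by one probe set and -0.54 by another. The lysine methyltransferases EEF1AKMT1, EEF1AKMT2 and EEF1AKMT3 were at -0.19, -0.030 and 0.24, and EEF2KMT was below the floor on both arrays. EEF1A1, EEF1D and EEF2 did not reach 1.5-fold by the probe set used, and EEF1A2 has only a bound, which was 0.80 with a floor at the 40th percentile.

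The E-box CACGTG, which MYC and related factors bind and which reads the same on both strands, was looked for in the 250 bases before and 50 after each listed start. It was present in 12 of the 43 factors (27.9%), against 12.5% of the 10236 measured genes with a listed start. Of the 12 factors, 4 were at least 1.5-fold lower (EIF4E, EIF4A3, EIF2B3 and EIF5A2), against 5 of the 31 without it. Over all measured genes the shares were 11.4% of 1277 with an E-box and 7.97% of 8959 without. The median log2 ratio was -0.12 for the factors with an E-box and -0.040 for those without. Over all measured genes these medians were 0.024 and 0.096. The other 8 with an E-box were EIF4G1, EIF1B, EIF4H, EEF2K, EIF2AK2, EIF4B, EIF3K and EIF3F. Of these, EIF4B, EIF3K and EIF3F also had a pyrimidine start and lay between 0.21 and 0.31, above 0 with quantile normalization too but not with spike-in scaling. EIF4H (0.0018), EEF2K (0.098) and EIF2AK2 (0.24) were above 0 as well by the probe sets used, EIF4H not after quantile normalization. EIF4G1 (-0.37) and EIF1B (-0.24) were below 0. MYC itself had a signal of 557 with Glivec and 3781 untreated. The part of MYC in the ratios of the factors was not tested. The matches in the 4 lower factors are shown with 12 bases on each side and the motif in capitals; a match is not evidence of binding.
EIF4E, chr4:98929341-98929370, minus strand, 225 bases before the start: ctacccatcggcCACGTGaccagtcctttt
EIF4E, chr4:98929188-98929217, minus strand, 72 bases before: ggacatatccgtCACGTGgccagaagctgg
EIF4A3, chr17:80147232-80147261, minus strand, 121 bases before: ccagttccctttCACGTGacgaagagtgcc
EIF2B3, chr1:44986757-44986786, minus strand, 179 bases before: gacagagggacaCACGTGtcgaatgctcct
EIF5A2, chr3:170908807-170908836, minus strand, 187 bases before: actaatccgcagCACGTGgggttgccaggg
EIF5A2, chr3:170908782-170908811, minus strand, 162 bases before: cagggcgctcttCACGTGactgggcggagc

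Other genes of translation also lay more often below 0 than above. Of 46 listed genes for termination, recycling, regulation and mitochondrial translation, 41 were measured, with a median of -0.11 and 26 below 0. Over all measured genes 41.0% were below 0. At least 1.5-fold lower were 6 of the 41, against 8.33% of all measured genes, and higher were 4, against 13.5%. LARP4 and PAIP2B were named by the rule of 2-fold, and the others named here were chosen after their values were seen. The termination factors ETF1 and GSPT1 were 1.64-fold and 1.71-fold lower, and the ribosome recycling factor ABCE1 1.72-fold (1217 with Glivec, 2099 untreated). All 6 GSPT1 probe sets above the floor were between -1.07 and -0.66. PELO, which rescues stalled ribosomes, was 1.70-fold lower, and LARP4, an RNA-binding protein, 2.32-fold (266 against 618). LARP1, which binds TOP mRNAs, was at -0.47. The phosphatase subunits that reverse EIF2 alpha phosphorylation parted: PPP1R15A was 1.98-fold higher (309 against 156), with a second probe set at 1.18, and PPP1R15B was 1.52-fold lower. PAIP2B, an inhibitor of poly(A)-binding protein, was below the floor untreated (4.74) and at 52.9 with Glivec, at least 3.86-fold higher. RPTOR, the mTORC1 scaffold, was 1.66-fold higher (86.9 against 52.2), and PDCD4, an inhibitor of EIF4A, was at least 1.88-fold higher (25.7 with Glivec, 10.2 untreated and below the floor).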

How the data were processed

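The authors deposited 1 linear signal intensity for each probe set of each array. Per the submitters' processing notes these came from MAS5 (no version is named there). The 2% trimmed mean was 100.014 on both arrays, so they had been scaled before deposit. Probe sets were named from the platform annotation; of 54675, 41097 had 1 gene symbol, 1801 several and 11777 none. All 57 symbols matched the RefSeq gene table (GRCh38.p14).

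A floor was set at the median signal over both arrays, controls left out (13.7), and any signal under it was set to it ahead of the log2 step. The brightest probe set stood for its gene, with _x_at probe sets used only where no other existed. A gene counted as measured when either array exceeded the floor. Thresholds were 2-fold and 1.5-fold. Members with at least 1.5-fold ratios, extremes of each complex and paralog sets were given signals by rule, and others were added after values were seen. No test between groups was possible. Members, lists and rules were chosen with earlier results of these data known. Transcript starts and windows of 250 bases before to 50 after them came from RefSeq (44 of 57 members). The calculation was tested on simulated data. Python 3.11.15, numpy 2.4.6, pandas 2.3.3, statsmodels 0.14.6 and matplotlib 3.10.9 were used. The number of arrays limits the precision.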

Additional observations from a re-analysis of the deposited data

How the results depend on the processing

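No paired analysis was possible because the design holds a single array of each condition, so no replicate could be left out. The start comparison, its definitions and the restriction to genes above the floor on both arrays were added after seeing the data; the other settings were listed earlier. The 9 factors at least 1.5-fold lower stayed below 0 under all 10 changes of scaling, floor, pseudocount or probe set choice wherever they had a value. All 9 stayed past the threshold with centring, loess, spike-in scaling, the 40th and 60th percentile floors, the pseudocount and the mean over probe sets, and 7 with quantile normalization (not EIF4E and EIF3J). With only _at probe sets 7 of 8 stayed past it, EIF1AX being lost at -0.34, and with the 75th percentile floor 7 of 7. Factors at least 2-fold lower numbered 2 with quantile normalization, centring, loess, the mean over probe sets and only _at probe sets, 16 with spike-in scaling, and 0 with a floor at either the 60th or the 75th percentile, a 3-fold threshold or only genes above the floor on both arrays. With spike-in scaling 38 were at least 1.5-fold lower. One factor (1) was at least 1.5-fold higher with the 40th percentile floor and the pseudocount (EEF1A2), the mean over probe sets (EIF4G2) and only _at probe sets (EIF3K, also 1 at 2-fold). The median over factors was -0.11 under quantile normalization, -0.12 under loess, -0.13 under centring, -0.78 under spike-in scaling, -0.089 when probe sets were averaged and -0.14 when only _at probe sets were kept. The median of the other translation genes was -0.21 with centring, -0.18 after loess, -0.85 with spike-in scaling and -0.19 with the 75th percentile floor. The gap between pyrimidine and other starts was 0.42 with quantile normalization, 0.44 after loess, 0.50 when probe sets were averaged, 0.52 with only _at probe sets and 0.42 to 0.54 over 3 other start definitions. Centring shifts all genes alike and cannot change it. Spike-in scaling shifts alike all genes above the floor on both arrays, but left the bound of EIF3C at -1.52. The gap stayed at 0.50. With a C allowed within 2 bases of the start, 3 of 14 factors were below 0, against 23 of 29. The cause of these shifts was not tested, beyond what the construction shows. Near the floor a ratio is a bound, which limits EIF3C and EEF1A2.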

Other observations

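Within a gene, probe sets of the factors did not all give the same size of difference. In 21 of 34 factors (61.8%) with several probe sets above the floor on both arrays, the brightest probe set had a higher log2 ratio than the mean of the others, against 52.7% of 5603 genes in all. The median gap was 0.11 for the factors and 0.020 for all genes. EIF1, EIF3A, EIF3J, EIF2S1 and EIF2S2 were among them, with dimmer probe sets lower than the one used.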
